A study of Mus musculus with 108 samples.

Results

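Livers of female C57BL/6 mice fed 30% fewer calories until 12 months of age (CR 12m) were compared with livers of female C57BL/6 mice on standard diet at 3 months of age (SD 3m), gene by gene, through the chromatin state at each transcription start site (TSS), in the 2 kb on each side of it and along the gene body. The members are the 24963 autosomal genes that have a curated RefSeq transcript, of 26089 such genes on the autosomes and chromosome X, and all of them were measured because a state exists for every bin of 200 bp. The study profiled 4 histone H3 marks by chromatin immunoprecipitation and sequencing (ChIP-seq) in 108 samples, of which 59 belong to this comparison. SD 3m held 30 libraries from 8 mice, with 7 libraries of H3K4me3, 7 of H3K27me3, 8 of H3K27ac and 8 of H3K4me1, and CR 12m held 29 libraries from 9 mice (5, 6, 9 and 9 in the same order). All mice were intact animals without a transgene, restriction of food began at 3 months, and the chromatin came from whole livers that were fixed in formalin and embedded in paraffin, so that all liver cell types were read together. CR 12m differs from SD 3m in age as well as in diet, and the 2 cannot be told apart within this comparison. For that reason the values of SD 12m (29 libraries from 8 mice at 12 months on standard diet) are given beside those of CR 12m. The 2 comparisons share SD 3m, and their values are therefore set side by side without a measure of overlap.

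The 4 marks divide the work of chromatin between them. H3K4me3 sits at promoters in use, H3K27ac at active promoters and enhancers, and H3K4me1 at enhancers, whether active or waiting, whereas H3K27me3 is written by Polycomb complexes over silent genes. ChromHMM, a hidden Markov model, turns the combination of marks in a bin into a state, and the study trained 8 states. States 1 (active TSS) and 2 (flanking TSS) carry H3K4me3 with H3K27ac and are called the promoter class here. States 3 and 4 (active enhancers with H3K27ac) and 5 (poised enhancer, mainly H3K4me1) form the enhancer class. State 6 is the Polycomb class, state 7 (described by the study as repeats and lamina-associated chromatin, with weak signal) stands alone, and state 8, without any mark, is quiescent. The libraries of a group were merged before states were assigned, so each group has 1 segmentation, there is no replicate check, and no difference below was tested against the spread between mice. The reads behind a state are unknown. A promoter bin that becomes an enhancer bin moved from a state that carries H3K4me3 to one defined mainly by enhancer marks. A state is a label of the model, so the move does not show which marks were detected in that bin.

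At the TSS bin, the bin of 200 bp that holds the start of the longest transcript, 6244 genes (25.0% of 24963) changed class between SD 3m and CR 12m. The most common move was out of the promoter class. It was made by 2637 genes (10.6%), and 2497 of these became enhancer. Of the 10279 promoter-class starts of SD 3m, 74.3% kept the class in CR 12m and 24.3% became enhancer, against 83.8% and 15.1% in SD 12m. Only 253 genes (1.01%) entered the promoter class, 211 of them from the enhancer class, so that promoter-class TSS bins numbered 10279 in SD 3m and 7895 in CR 12m, against 8923 in SD 12m. Enhancer-class TSS bins numbered 4679 in SD 3m, 7213 in CR 12m and 6089 in SD 12m. Exchange between silent classes came next. Quiescent TSS bins became Polycomb at 989 genes (3.96%) and Polycomb TSS bins became quiescent at 687 genes (2.75%), against 1440 and 519 in SD 12m. Quiescent TSS bins became enhancer at 550 genes (2.2%), enhancer TSS bins became quiescent at 377 genes (1.51%), and quiescent TSS bins became state 7 at 195 genes (0.781%), where SD 12m had 409, 309 and 588.

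**Figure D1:**
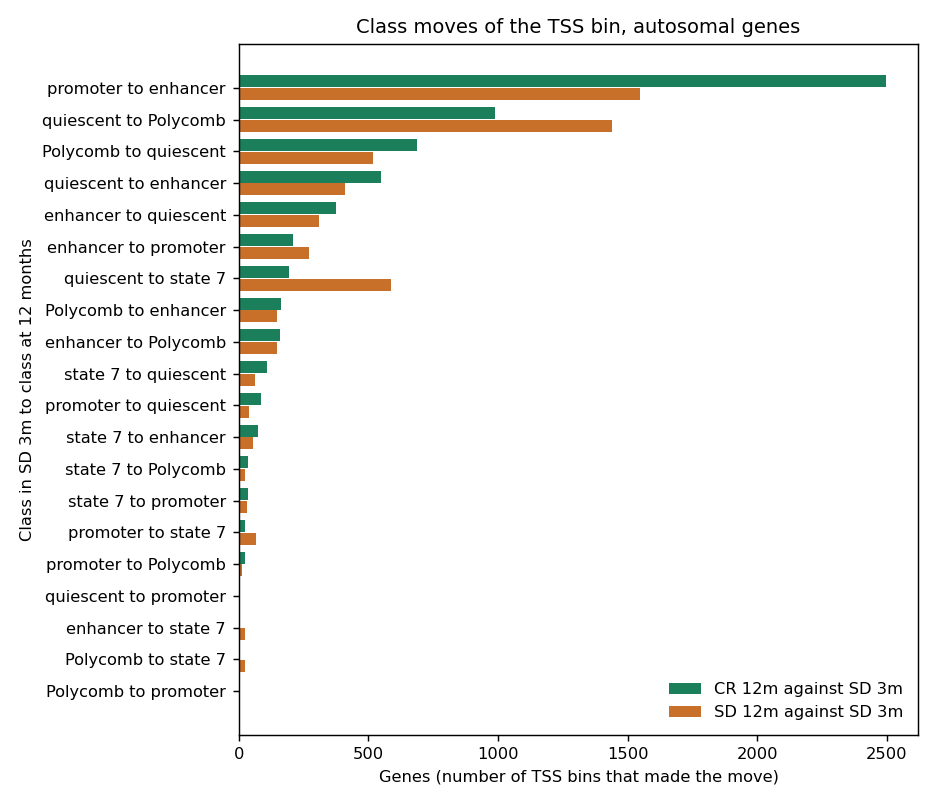
Number of autosomal genes (horizontal axis) whose TSS bin moved from one class in SD 3m to another class (vertical axis), in CR 12m (green) and SD 12m (orange). The bar for promoter to enhancer is the longest in both, with 2497 genes in CR 12m and 1549 in SD 12m, and the bar for quiescent to state 7 is longer in SD 12m.

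Within 2 kb of the TSS, a window of 21 bins read by its most frequent class, 8894 genes (35.6%) changed class. Promoter-dominated windows numbered 8452 in SD 3m and 3108 in CR 12m, and enhancer-dominated windows 6454 and 11846. Over the gene body, from transcript start to end, 4794 genes (19.2%) changed class. TSS bin, window and body moved alike, from one same class to another, at 1794 genes (7.19%). The 514 genes that went from quiescent to Polycomb throughout were the largest group, followed by 365 from Polycomb to quiescent, 279 from quiescent to enhancer, 249 from promoter to enhancer, 133 from enhancer to quiescent and 131 from quiescent to state 7. In SD 12m the same groups held 845, 240, 179, 166, 94 and 462 genes.

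The promoter class shrank around nearly every gene that had it. Of 12219 genes with at least 1 promoter-class bin in the window in SD 3m, 11294 had fewer in CR 12m (45.2% of all genes, 92.4% of those with any), 488 had the same number and 437 had more. With genes that had none in SD 3m, 532 genes (2.13%) had more. The median fell from 13 bins to 8 among genes with any, against 9 in SD 12m, and the median change was -5 bins with quartiles of -8 and -3. Windows filled with 21 promoter-class bins numbered 1166 in SD 3m, 49 in CR 12m and 78 in SD 12m. In all, 1660 genes (13.6% of those with any) lost every promoter-class bin in CR 12m, and 1087 (8.9%) did in SD 12m.

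**Figure D2:**
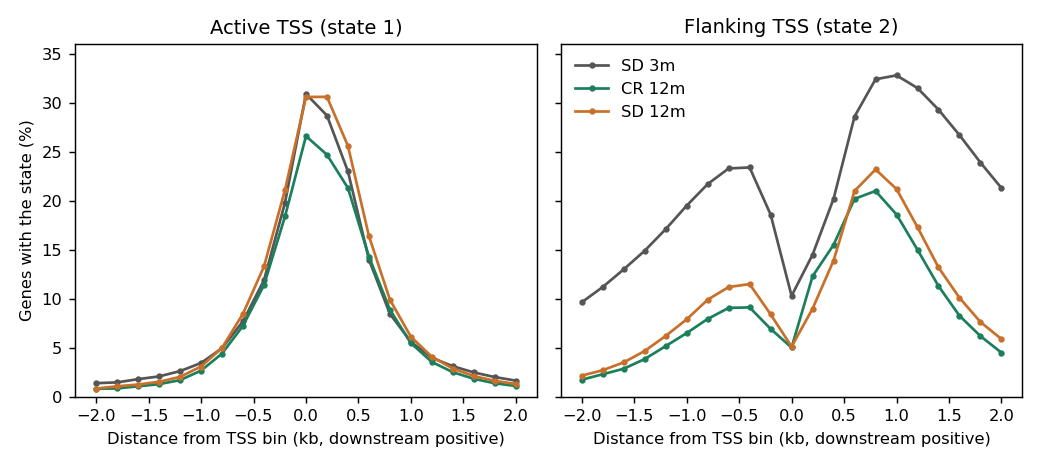
Percent of the 24963 genes (vertical axis) whose bin at a given distance from the TSS bin (horizontal axis, kb) was in state 1 (left) or state 2 (right), in SD 3m, CR 12m and SD 12m. State 1 stays a narrow peak at the TSS, with 30.9% of genes at the TSS bin in SD 3m and 26.6% in CR 12m, whereas state 2 at 2 kb downstream covers 21.3% of genes in SD 3m and 4.5% in CR 12m.

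State 2, the flanking state, carried most of this. Summed over all windows, state 2 filled 110790 bins in SD 3m and 48275 in CR 12m, while state 1 filled 45199 and 40314. Upstream of genes the loss left less behind. The promoter class covered 11% of genes at 2 kb upstream in SD 3m and 2.55% in CR 12m, and upstream bins made up 39.3% of the promoter-class bins off the TSS in SD 3m and 32.6% in CR 12m. Counting each bin near a TSS once, 53.7% of the 127986 promoter-class bins of SD 3m were promoter class in CR 12m, 45.1% were enhancer and 0.73% were quiescent. Farther than 2 kb from any of these TSS, 17.5% of 72850 promoter-class bins remained so in CR 12m and 79.2% became enhancer. In SD 12m, 61.5% of the bins near a TSS and 23.6% of those farther away remained promoter class.

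**Figure D3:**
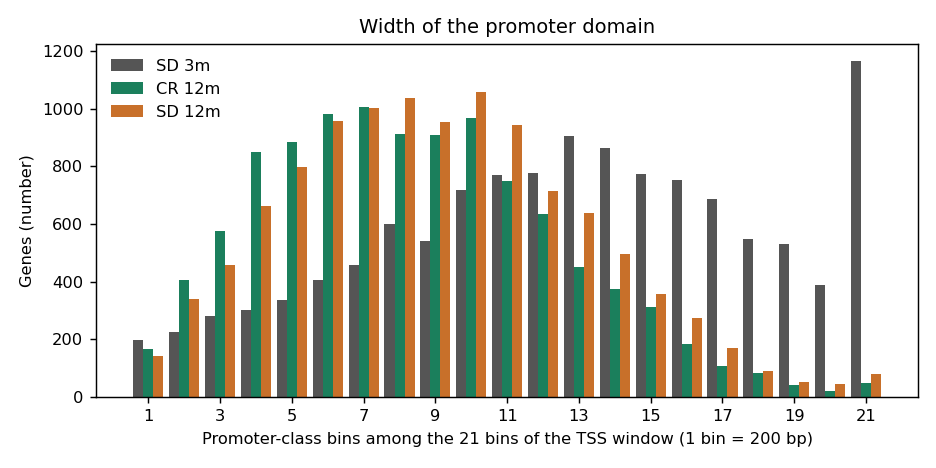
Number of genes (vertical axis) by the number of promoter-class bins in their TSS window (horizontal axis, from 1 to 21 bins of 200 bp), in SD 3m, CR 12m and SD 12m. The SD 3m bars lie to the right with 1166 genes at 21 bins, and the CR 12m bars lie to the left with 49 genes there.

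How wide a promoter was at 3 months went with whether any of it remained. Of 1339 genes with 1 to 5 promoter-class bins in SD 3m, 62.4% had none in CR 12m. Of the 1166 genes with all 21 bins, 0.772% had none and the median was 13 bins. The median change over genes with any was -5 bins, enough to empty a window of 1 to 5 bins but not one of 21. The starting width thus sets part of this contrast. At the TSS bin itself, 21.9% of 7710 genes in state 1 left the promoter class, and 36.8% of 2569 genes in state 2 did. Leaving was often a matter of position, since 1844 of the 2637 genes (69.9%) still had a promoter-class bin elsewhere in the window, 1602 of them downstream of the TSS. The remaining 793 genes had none. Conversely, 224 of the 253 genes (88.5%) that entered the promoter class already had a promoter-class bin nearby in SD 3m. Libraries of H3K4me3 numbered 7 in SD 3m, 5 in CR 12m and 8 in SD 12m, and the part of this number in the width of promoter domains was not tested.

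Histone genes stood out among neighbours that moved together. Neighbouring genes, ordered along the chromosome, formed 72 runs of 3 or more that all went from promoter to enhancer, with 238 genes in all, and the longest run was H4c11, H4c12, H2ac15, H2bc15, H1f5 and H3c11, a stretch of 6 histone genes on chromosome 13 (TSS from 21735034 to 21783397, GRCm38). A further 5 genes from H2ac10 to H4c6 and 5 genes from H3c3 to H4c2 made the same move elsewhere on chromosome 13. These genes encode the core and linker histones that dividing cells make during DNA replication. The clustered histone genes on chromosomes 3 and 13 were taken by symbol alone, 63 in all, without regard to when or where each is expressed. Of these 63, 41 had a promoter-class TSS bin in SD 3m. Of these 41, 11 kept it in CR 12m and 30 became enhancer, where 24.3% of all promoter-class starts did. The set was chosen after these runs were seen and contains them, so the contrast is not independent of the runs. On chromosome 13, 29 of 35 became enhancer, and on chromosome 3, 1 of 6 did and 5 kept the class. In SD 12m, 19 of the 41 kept it and 22, all on chromosome 13, became enhancer, beside 15.1% of all. The median number of promoter-class bins over the 63 genes was 14 in SD 3m, 0 in CR 12m and 0 in SD 12m. On chromosome 3 it was 16.5, 7 and 11. H3c3, an H3 gene, had 21 promoter-class bins in SD 3m, 0 in CR 12m and 0 in SD 12m, and H4c6, an H4 gene, had the same 3 values. Of 11 histone genes that are expressed outside replication, 9 were promoter class in SD 3m, of which 7 kept it in CR 12m and 9 in SD 12m. H3f3a and H3f3b, which encode H3.3, and H2az1 and H2az2, which encode H2A.Z, were in state 1 in all 3 groups, and H3f3a had 20, 13 and 16 promoter-class bins in SD 3m, CR 12m and SD 12m. Many of the clustered genes are near-identical copies, so reads that fit several of them can be missing or shared, and their states are uncertain to that extent.

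The promoter of H3c3 is shown because its window lost more promoter-class bins than any other gene's except those tied with it. It lies at chr13:23745472-23745771, covers the 250 bases before and the 50 bases after the TSS in the RefSeq annotation of GRCm38.p6, and is written 5′ to 3′ on the strand of the gene with CG dinucleotides, the targets of DNA methylation, in capitals. It holds 9 of them.
H3c3: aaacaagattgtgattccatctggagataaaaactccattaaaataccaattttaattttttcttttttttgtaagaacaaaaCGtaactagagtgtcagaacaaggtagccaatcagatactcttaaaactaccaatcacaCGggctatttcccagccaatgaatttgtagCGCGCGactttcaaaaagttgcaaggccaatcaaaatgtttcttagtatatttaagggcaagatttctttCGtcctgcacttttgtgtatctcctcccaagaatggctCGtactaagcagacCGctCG

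Immune genes lost the promoter class from many of their starts. Of 50 genes of interferon signalling, inflammation and the acute phase, 25 changed class at the TSS bin (50%, beside 25.0% of all genes), against 16 in SD 12m, and 18 of them went from promoter to enhancer. The median number of promoter-class bins over the list was 10.5 in SD 3m, 0 in CR 12m and 3.5 in SD 12m, while over all genes it was 0 in each group because many genes have none. Isg15, an interferon-induced ubiquitin-like protein, had 18 promoter-class bins in SD 3m, 0 in CR 12m and 1 in SD 12m. Irf8, a transcription factor of macrophages, had 13, 0 and 8, and its TSS bin went from state 1 to state 3 in CR 12m and kept state 1 in SD 12m. The genes for class II antigen presentation H2-Ab1 (12, 0 and 5 bins) and H2-Eb1 (15, 0 and 2 bins) kept no promoter-class bin in CR 12m. Casp1, which matures interleukin 1, went from state 1 to state 7 in CR 12m and stayed in state 1 in SD 12m. Zeb2, Mup5 and Irf5 led the move from promoter to enhancer over all genes, by the rule for named genes, since all 21 bins of each window made it. Zeb2, a transcription factor of Kupffer cells and other cells, had 6 promoter-class bins in SD 12m, and Irf5 had 4. Zeb2 has 4 curated TSS bins, and at one of them (45110733 on chromosome 2) state 1 was present in all 3 groups. Mup5, which encodes a urinary protein and had 0, belongs to a family of near-identical copies.

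Some immune genes went further. Clec12a, a receptor of myeloid cells, went from state 1 to quiescent with 18 promoter-class bins in SD 3m and 0 in both groups at 12 months. Epsti1, which is induced by interferon, and Trim30d, a member of the tripartite motif family, went from state 1 to quiescent with 12 bins each in SD 3m and 0 in CR 12m. Casp4, a sensor of bacterial lipopolysaccharide, went from state 1 to state 7 in CR 12m and was in state 1 in SD 12m. Irf4, a transcription factor of lymphocytes, had a body of 100.0% enhancer bins in SD 3m and 100.0% Polycomb bins in CR 12m, with 89.9% in SD 12m. H2-Eb2, a class II gene, had 100.0% enhancer bins in SD 3m and 93.8% Polycomb bins in CR 12m, whereas SD 12m had 100.0% enhancer. Exceptions to this direction were the acute-phase genes Saa1 and Saa2 and the chemokine gene Ccl5, whose TSS bins went from quiescent to state 4 in CR 12m. The body of Saa2 was 100.0% enhancer with caloric restriction and 0.0% in both other groups, although the Saa genes are also close copies of each other.

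The promoter of Irf5, a transcription factor of the inflammatory response, is shown as one that lost the class while rich in CG. It lies at chr6:29526375-29526674 and holds 35 CG dinucleotides in 300 bases, shown in capitals.
Irf5: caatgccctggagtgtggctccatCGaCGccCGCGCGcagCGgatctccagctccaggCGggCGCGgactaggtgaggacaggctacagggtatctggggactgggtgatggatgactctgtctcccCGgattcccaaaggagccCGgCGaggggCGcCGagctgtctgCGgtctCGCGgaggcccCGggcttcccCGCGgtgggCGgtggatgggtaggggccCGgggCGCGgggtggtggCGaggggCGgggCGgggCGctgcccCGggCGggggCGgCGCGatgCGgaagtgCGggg

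Markers of blood-derived cells differed from list to list. Of 7 autosomal markers of Kupffer cells and macrophages, 4 changed class, where 25.0% of all genes did, against 3 in SD 12m. Their Polycomb starts numbered 1 in SD 3m and 4 in both CR 12m and SD 12m. Marco and Timd4 went from quiescent and Cd5l from state 7 to Polycomb, and Adgre1, which encodes F4/80, went from state 5 to quiescent. Promoter-class bins at Cd68 numbered 10, 0 and 0 in SD 3m, CR 12m and SD 12m. Clec4f, a defining marker of Kupffer cells, was Polycomb in all 3 groups. None of 6 T cell markers changed class, and the Cd3d, Cd3e and Cd3g TSS bins were Polycomb in all 3 groups. Of 5 B cell markers 1 changed, of 4 neutrophil markers 1 changed (S100a8) and of 3 erythroid markers 1 changed (Klf1). Of 10 leukocyte genes added after these values were seen, 5 changed in CR 12m and 2 in SD 12m. Among them Ptprc, which encodes CD45, and Lyz2, the macrophage lysozyme, were enhancer in SD 3m and SD 12m and quiescent in CR 12m, and the body of Ptprc had 44.8% enhancer bins in SD 3m, 9.1% in CR 12m and 43.9% in SD 12m. Over these 10 genes, taken at any length, the percent of enhancer bins in the body fell in 5 and rose in 3. Of all 14323 genes of 10 kb or more, it rose in 7904 and fell in 3172. Enhancer-class starts of the 10 genes numbered 6 in both SD 3m and CR 12m. The bodies of Cd52, Coro1a and Spi1 rose from 22.2%, 40.7% and 91.6% to 100.0%. In whole liver, fewer cells of a type and a lower mark in each cell cannot be told apart, and the part of cell composition in the immune results was not tested.

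Genes of the cell cycle lost the promoter class too. Of 48 genes of proliferation, the p53 response and inhibitors of cyclin-dependent kinases, 23 changed class (47.9%, beside 25.0% of all genes), against 17 in SD 12m. From promoter to enhancer went 17 of the 23. The median number of promoter-class bins was 10.5 in SD 3m, 3 in CR 12m and 4.5 in SD 12m. Mki67, the proliferation antigen, had 15 promoter-class bins in SD 3m, 0 in CR 12m and 7 in SD 12m, and its TSS bin passed from state 1 to the poised state 5 in CR 12m and kept state 1 in SD 12m. Top2a, the topoisomerase of dividing cells, had 9, 0 and 7 bins. Plk1, a mitotic kinase, went from state 1 to quiescent in CR 12m and to state 7 in SD 12m. The start of the longest transcript of Cdkn2a, which encodes cell cycle inhibitors, went from state 7 to Polycomb in both groups at 12 months, while its other curated start, 12427 bp away, was Polycomb in all 3 groups.

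Of 25 circadian clock genes 18 had a promoter-class start in SD 3m. In CR 12m, 9 of these left the class for enhancer, where 24.3% of all promoter-class starts did, and 1 other gene entered it. In all 10 clock genes changed class (40.0%, beside 25.0% of all genes), against 15 in SD 12m. Per1 and Nr1d1 (which encodes REV-ERBα, a repressor of the clock) went from state 2 to state 3 in both groups at 12 months. Per1 had 18 promoter-class bins in SD 3m, 7 in CR 12m and 6 in SD 12m, and Nr1d1 had 21, 10 and 10. Per2, Cry2, Ciart, Nr1d2, Rora, Tef and Csnk1e were the other genes that left, and Nfil3 went from state 4 to state 1 in CR 12m and stayed in state 4 in SD 12m. Arntl, which encodes BMAL1, kept state 4 in CR 12m and was in state 1 in SD 12m. The hour at which each liver was taken is not given in the sources used here.

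The promoter of Nr1d1 is shown for this group. It lies at chr11:98775328-98775627 on the reverse strand and holds 9 CG dinucleotides.
Nr1d1: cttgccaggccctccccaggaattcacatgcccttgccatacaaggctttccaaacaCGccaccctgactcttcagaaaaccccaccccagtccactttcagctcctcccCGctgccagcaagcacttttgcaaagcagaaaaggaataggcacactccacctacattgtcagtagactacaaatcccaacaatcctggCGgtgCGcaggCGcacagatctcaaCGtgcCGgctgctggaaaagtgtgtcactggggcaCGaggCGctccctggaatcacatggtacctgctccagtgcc

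In the list of fatty acid and sterol synthesis 13 of 43 genes changed class (30.2%, beside 25.0% of all genes), against 7 in SD 12m. From promoter to enhancer went 12 of the 13. The median number of promoter-class bins went from 14 in SD 3m to 10 in CR 12m and 10 in SD 12m. Of 38 genes of the list with promoter-class bins, 36 had fewer in CR 12m, as did 92.4% of all such genes. Fasn, the fatty acid synthase, went from state 1 to state 4 in CR 12m and kept state 1 in SD 12m, with 13, 9 and 13 promoter-class bins in SD 3m, CR 12m and SD 12m. Srebf1, which encodes the sterol regulator SREBP1, had 14, 1 and 5 bins. Its TSS bin went from state 2 to state 3 in CR 12m and kept state 2 in SD 12m, and its 3 curated TSS bins all made this move in CR 12m. Acly, which makes cytosolic acetyl-CoA, and Elovl6, a fatty acid elongase, had 14 and 13 bins in SD 3m and 10 each in CR 12m. Both left the promoter class at the TSS bin in CR 12m and kept it in SD 12m. Dgat2 and Thrsp left it in both groups at 12 months, as did the starts used of Mlxipl and Insig2, whereas other curated starts of Mlxipl (17001 bp away) and Insig2 (4565 bp and 4911 bp away), with more transcripts, were promoter class in all 3 groups. Scap alone in this list entered the class, from state 4 to state 1.

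The promoter of Fasn is shown because its TSS bin lost the class in CR 12m and not in SD 12m. It lies at chr11:120824498-120824797 on the reverse strand and holds 39 CG dinucleotides.
Fasn: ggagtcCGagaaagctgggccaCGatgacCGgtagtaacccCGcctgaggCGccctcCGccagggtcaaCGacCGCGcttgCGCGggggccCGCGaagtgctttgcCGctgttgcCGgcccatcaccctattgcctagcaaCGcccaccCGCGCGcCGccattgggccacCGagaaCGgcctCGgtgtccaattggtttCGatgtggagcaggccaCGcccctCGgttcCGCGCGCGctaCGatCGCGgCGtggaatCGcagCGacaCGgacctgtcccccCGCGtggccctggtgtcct

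Genes of fatty acid oxidation and ketogenesis changed at 9 of 45 genes (20%, beside 25.0% of all genes), against 5 in SD 12m. Cpt1a, the carnitine transferase that admits fatty acids to mitochondria, stayed in state 1 with 19, 17 and 16 promoter-class bins. Hadh, Plin2, Vnn1, Acadvl, Acot1 and Ehhadh went from promoter to enhancer, while Cyp4a14 and Acaa1b, of microsomal and peroxisomal oxidation, entered the promoter class. Acaa1b had 5, 11 and 9 bins and was in state 3 at its TSS in SD 12m. In the list of gluconeogenesis, glycolysis, amino acid catabolism and the urea cycle 6 of 43 genes changed (14%, beside 25.0% of all genes), against 12 in SD 12m. Pck1, the enzyme that commits carbon to glucose, had 0 promoter-class bins in SD 3m, 12 in CR 12m and 13 in SD 12m. Fbp1, a gluconeogenic phosphatase, went from state 4 to state 1 in both groups at 12 months, and Sds, which breaks down serine, went from quiescent to state 3 in CR 12m and to state 1 in SD 12m. Slc2a2, the glucose transporter of hepatocytes, Gys2 and Oat left the promoter class.

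Gains of the promoter class were few, at 253 genes (1.01%). The genes below were named by the rule or are members of the lists, so they do not show where gains fell among all genes. In the growth hormone, IGF and insulin axis, promoter-class starts numbered 31 in SD 3m, 27 in CR 12m and 29 in SD 12m. Cyp26a1, which degrades retinoic acid, gained more promoter-class bins than any other gene, with 0 in SD 3m, 19 in CR 12m and 0 in SD 12m, and its TSS bin passed from state 5 to state 1 in CR 12m and was in state 5 in SD 12m. Igfbp1, a binding protein of insulin-like growth factors that is induced by fasting, had 4, 10 and 10 bins. Its TSS bin was in state 4, then state 1 in CR 12m and state 5 in SD 12m. Irs2, the insulin receptor substrate of liver, had 7, 15 and 10 bins, and its TSS bin went from state 7 to state 1 in CR 12m and to state 4 in SD 12m. Ghr, the growth hormone receptor, had 10, 12 and 10 bins, with state 4 in SD 3m and SD 12m and state 1 in CR 12m at the TSS used. A TSS 1510 bp away was in the promoter class in all 3 groups. Sult2a3, a sulfotransferase, had 0, 12 and 3 bins, and Cyp4b1, a monooxygenase, had 1, 11 and 6. Sult2a3 has close copies in its cluster.

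The promoters of these genes differ widely in CG content and are shown for that contrast, each as 300 bases with CG in capitals and read 5′ to 3′ on the strand of the gene. Pck1 (chr2:173152823-173153122, forward strand) holds 6 CG dinucleotides and Igfbp1 (chr11:7197537-7197836, forward strand) holds 8, whereas Cyp26a1 (chr19:37697558-37697857, forward strand) holds 26 and Irs2 (chr8:11008880-11009179, reverse strand) holds 41.
Pck1: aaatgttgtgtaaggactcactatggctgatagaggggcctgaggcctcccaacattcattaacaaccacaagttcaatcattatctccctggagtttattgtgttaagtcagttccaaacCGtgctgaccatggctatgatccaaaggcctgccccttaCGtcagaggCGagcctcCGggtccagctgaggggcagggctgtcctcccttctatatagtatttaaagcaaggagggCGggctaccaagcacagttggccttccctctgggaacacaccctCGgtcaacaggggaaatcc
Igfbp1: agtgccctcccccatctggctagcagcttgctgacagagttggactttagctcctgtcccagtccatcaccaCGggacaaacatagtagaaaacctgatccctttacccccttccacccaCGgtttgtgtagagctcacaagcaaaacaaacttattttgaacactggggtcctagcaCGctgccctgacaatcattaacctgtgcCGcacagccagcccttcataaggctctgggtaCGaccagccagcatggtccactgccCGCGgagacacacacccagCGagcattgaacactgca
Cyp26a1: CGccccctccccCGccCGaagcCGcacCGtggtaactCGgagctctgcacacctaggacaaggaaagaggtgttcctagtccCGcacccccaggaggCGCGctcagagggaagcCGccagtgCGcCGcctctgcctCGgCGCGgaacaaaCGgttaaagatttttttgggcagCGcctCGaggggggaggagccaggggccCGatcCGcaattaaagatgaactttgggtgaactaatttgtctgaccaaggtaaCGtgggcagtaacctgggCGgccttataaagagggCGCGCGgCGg
Irs2: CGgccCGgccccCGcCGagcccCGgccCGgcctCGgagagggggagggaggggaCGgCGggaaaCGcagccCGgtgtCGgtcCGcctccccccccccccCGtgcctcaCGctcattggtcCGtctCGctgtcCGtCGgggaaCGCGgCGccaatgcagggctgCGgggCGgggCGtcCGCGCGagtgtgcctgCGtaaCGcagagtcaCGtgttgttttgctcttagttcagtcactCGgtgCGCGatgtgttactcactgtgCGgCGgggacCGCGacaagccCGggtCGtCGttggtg

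In the growth hormone, IGF and insulin axis 14 of 43 genes changed class (32.6%, beside 25.0% of all genes), against 9 in SD 12m, in both directions. Beside the gains above, 8 genes went from promoter to enhancer. Among them Insr, the insulin receptor, had 14, 10 and 13 promoter-class bins, and Stat3 and Akt1, which relay cytokine and insulin signals, had 15, 6 and 11 and 13, 3 and 10. All 3 kept the promoter class at the TSS bin in SD 12m. Among hepatocyte transcription factors the promoter class grew at the TSS bin, from 15 genes in SD 3m to 18 in CR 12m and 16 in SD 12m, of 23. In the window, however, 10 of these genes had fewer promoter-class bins in CR 12m and 5 had more. The medians were 15 in SD 3m, 15 in CR 12m and 14 in SD 12m. Foxa1 and Onecut2 went from state 4 to state 1 in CR 12m and stayed in state 4 in SD 12m, with 10, 15 and 9 bins at Foxa1. Nr5a2 and Onecut1 also entered, and Foxa3 left. In all, 6 of the 23 changed (26.1%), a share near that of all genes. Of 43 genes of bile acids, xenobiotic metabolism and nuclear receptors, 12 changed (27.9%), a share near that of all genes, against 8 in SD 12m. From promoter to enhancer went 6. Abcb11, the bile salt export pump, and Abcb4, which exports phospholipid, were 2 of 5 that entered the promoter class. Promoter-class starts in this list numbered 27 in SD 3m and 26 in both CR 12m and SD 12m. Promoter-class bins were fewer in CR 12m at 27 of its genes and more at 9.

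**Figure D4:**
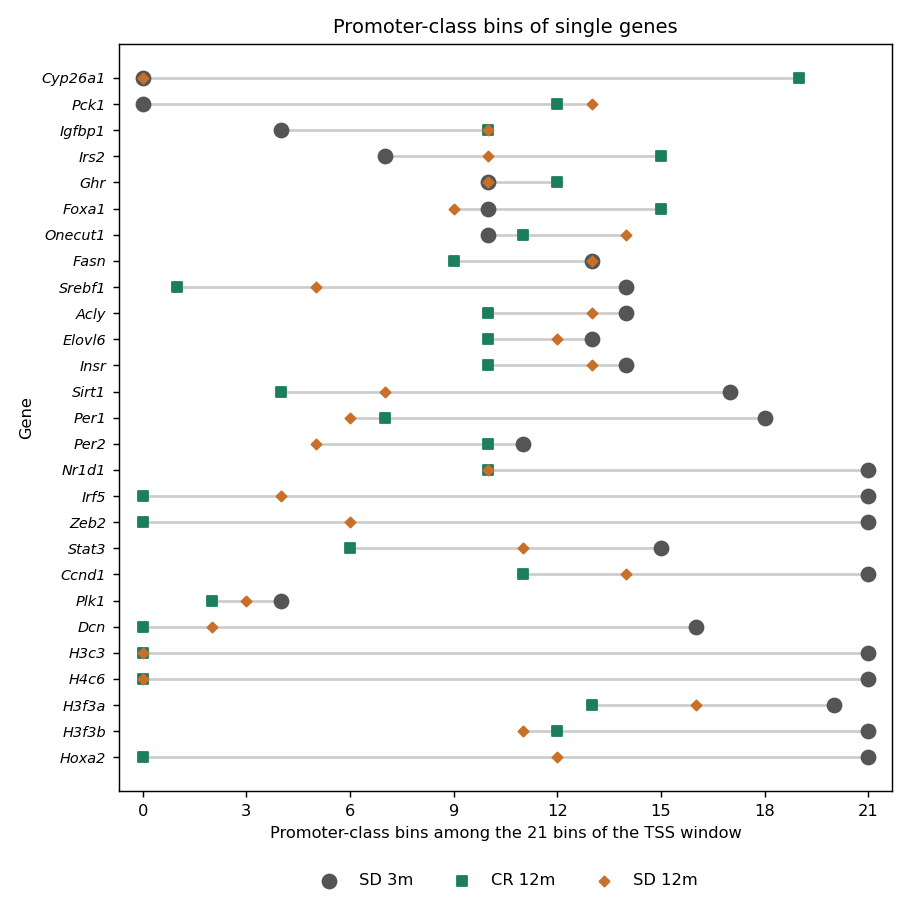
Promoter-class bins among the 21 bins of the TSS window (horizontal axis) for single genes (vertical axis) in SD 3m (grey circles), CR 12m (green squares) and SD 12m (orange diamonds). Cyp26a1 stands at 19 in CR 12m and 0 in both other groups, Pck1 and Irs2 lie farther right at 12 months, and most others, such as H3c3 from 21 to 0, lie farther left.

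Other groups of active genes changed mainly by leaving the promoter class, as all genes did, and their shares are to be read beside the 25.0% of all starts that changed and the 24.3% of promoter-class starts that became enhancer. In the list of sirtuin, NAD and antioxidant genes 13 of 42 changed (31.0%), 12 of them from promoter to enhancer, against 6 changed in SD 12m. Sirt1, a deacetylase linked to food restriction, had 17, 4 and 7 promoter-class bins and went from state 1 to state 4 in both groups at 12 months, and Nampt, which makes the precursor of NAD, had 15, 6 and 11, with state 4 in CR 12m and state 1 in SD 12m. Autophagy and lysosome genes changed at 12 of 41 (29.3%) against 3 in SD 12m, and 11 of the 39 promoter-class starts, among them Becn1 and Lamp1, became enhancer, a share near that of all genes. Plasma protein genes of hepatocytes changed at 17 of 45 (37.8%) against 15 in SD 12m, with 12 moves from promoter to enhancer (such as Hp, F2 and Hrg) and 5 in the other direction (Fgg, Fgb, Apoa5, Apoh and Serpina1a). Their median was 10 promoter-class bins in all 3 groups. Of 39 sex-biased liver genes, 11 changed (28.2%, against 6 in SD 12m), and Sult2a1, Cyp3a41a and Cyp2a4 went from quiescent to enhancer in CR 12m while Hsd3b5 went from state 3 to quiescent. These belong to clusters of close copies. Genes that write and erase the marks changed at 11 of 47 (23.4%, against 13 in SD 12m), and 9 of these lost the promoter class, including Kdm6b, a demethylase of H3K27 (21, 3 and 10 bins).

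Housekeeping genes had the lowest shares of changed TSS bins among the lists of 20 or more genes. Cytosolic ribosomal protein genes changed at 9 of 79 (11.4%) and respiratory chain genes at 8 of 75 (10.7%), against 7 and 4 in SD 12m, below the 25.0% of all genes. Their domains narrowed nevertheless, with medians of 14, 10 and 10 promoter-class bins for ribosomal protein genes and 15, 10 and 10 for respiratory chain genes. The TSS window changed class at 43 of 79 ribosomal protein genes and 30 of 75 respiratory chain genes, beside 35.6% of all genes. The body did at 27 of 79 and 12 of 75, beside 19.2%. For ribosomal protein genes the low share thus holds at the TSS bin only. Zinc finger protein genes changed at 85 of 361 (23.5%), 40 of them from promoter to enhancer, against 70 and 21 in SD 12m. Hepatocyte markers were in active states in all 3 groups. Hnf4a kept state 3, and of the 6 markers 2 changed, both from enhancer to promoter (Cyp2e1 and Serpina1a).

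**Figure D5:**
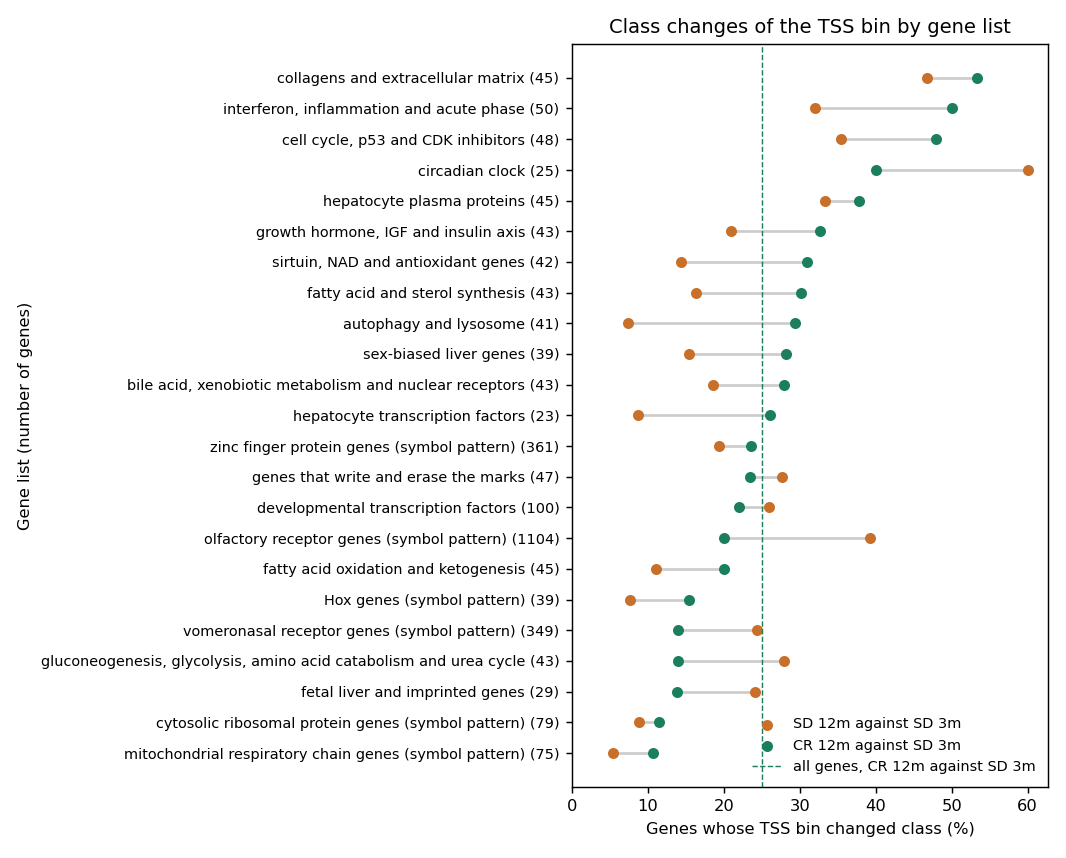
Percent of genes whose TSS bin changed class (horizontal axis) for each list of 20 or more genes (vertical axis, number of genes in brackets; the shorter marker lists are not plotted), in CR 12m (green) and SD 12m (orange), both against SD 3m. The dashed line marks the 25.0% of all genes in CR 12m, and the extracellular matrix, immune and cell cycle lists lie farthest to its right among the green points while respiratory chain and ribosomal protein genes lie farthest to its left.

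Besides the 2497 starts from the promoter class, 550 quiescent, 163 Polycomb and 76 state 7 starts became enhancer. By the number of bins that moved, the genes that led the change from quiescent to enhancer were Plppr1, Kank1 and Ppargc1a, and all 21 bins of each window made it. Ppargc1a encodes PGC-1α, the coactivator of mitochondrial and gluconeogenic genes. Its longest curated transcript, a non-coding RNA record, spans 51454249 to 51567725 on chromosome 5 (reverse strand). The bin of that start held state 8 at 3 months, state 4 with caloric restriction and state 8 in SD 12m. The body had 51.1%, 90.0% and 57.2% enhancer bins. The shorter curated transcripts start 13804 bp downstream, in a bin that went the other way within active chromatin, from state 2 (SD 3m) to state 3 (CR 12m), with state 2 in SD 12m. The body of Plppr1, a membrane protein of neurons, had 44.1%, 74.9% and 61.9% enhancer bins, and that of Kank1, which organises actin, had 41.0%, 67.3% and 43.2%.

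Along whole bodies of 10 kb or more, Aqp7 and Trarg1 passed from 0.0% enhancer bins in SD 3m to 100.0% in CR 12m, with 0.0% and 2.1% in SD 12m. Aqp7 (41033074 to 41048136 on chromosome 4) is a channel for glycerol and Trarg1 (76679873 to 76698664 on chromosome 11) acts on the traffic of the insulin-responsive glucose transporter, and both are known from fat tissue. Ism2 followed with a rise of 96.2 points. Of 10 markers of adipocytes, a list added after these 2 genes were seen, 3 changed class at the TSS bin in CR 12m and 0 in SD 12m. Of all genes 25.0% did in CR 12m. Among the 10 markers, 7 had a higher percent of enhancer bins in the body in CR 12m than in SD 3m while 0 had a lower one. A rise was also the more common change elsewhere. Of all 14323 genes of 10 kb or more, the percent rose in 7904 and fell in 3172, whereas the markers were taken at any length. Of the 3 starts, that of Retn became enhancer, that of Lep went from Polycomb to quiescent and that of Adrb3 from quiescent to Polycomb. The body of Retn, which encodes the adipocyte hormone resistin, had 13.6% enhancer bins in SD 3m, 100.0% in CR 12m and 9.1% in SD 12m, that of Plin4, a lipid droplet coat protein, had 68.1%, 100.0% and 66%, and that of Lep, leptin, had 8.7%, 47.8% and 0.0%. Plin1, another lipid droplet protein, had 23.7%, 86.4% and 83.1%, and Fabp4, a fatty acid carrier, had 78.3%, 100.0% and 100.0%, so that both were higher in SD 12m too. Adipoq, which encodes adiponectin, had 100.0% in all 3 groups. Whether fat cells came with these livers was not tested.

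Polycomb starts that became enhancer numbered 163, led by B4galnt3, Rhd and Igfbpl1 with all 21 bins each. Igfbpl1 had 63.6% Polycomb bins in its body in SD 3m, 0.0% in CR 12m and 15.9% in SD 12m, and its enhancer bins made up 28.4%, 100.0% and 59.1%. Among bile duct markers 6 of 7 changed class, where 25.0% of all genes did, against 4 in SD 12m. Sox9, a transcription factor of the ducts, went from state 7 to state 1 with 0, 8 and 0 promoter-class bins, Krt7 and Krt19 went from quiescent to state 4, and Epcam went from state 4 to quiescent. Endothelial markers changed at 4 of 8, against 6 in SD 12m. Those 4 starts all became enhancer, 2 from the promoter class, 1 from quiescent and 1 from state 7. With caloric restriction all 8 markers were thus enhancer, where 4 had been at 3 months. Promoter-class bins became fewer at 5 of the 8 markers and more at 2. Pecam1 and Oit3 went from state 2 to state 3 with 9 and 11 promoter-class bins in SD 3m and 0 in CR 12m.

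Enhancer-class starts that became quiescent included those of Ttc28 and Atp8b4, with all 21 bins of each window. Ttc28 (110879803 to 111289780 on chromosome 5) had 49.3% enhancer bins in its body in SD 3m, 18.7% in CR 12m and 18.8% in SD 12m. Aspn, which encodes the matrix protein asporin, and Ms4a4a, a membrane protein of leukocytes, had bodies of 100.0% enhancer in SD 3m and 100.0% quiescent in CR 12m, with 95.7% and 86.4% quiescent in SD 12m. The start of Ms4a4a was nevertheless in state 5 in SD 12m. Separating the poised state 5 from the enhancer class lowered the count of moves from enhancer to quiescent from 377 to 140, so most of these starts were poised in SD 3m.

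Genes of the extracellular matrix and developmental regulators gained Polycomb state. Of 45 collagen and matrix genes, 24 changed class (53.3%, beside 25.0% of all genes), against 21 in SD 12m, and their Polycomb starts numbered 4 in SD 3m, 13 in CR 12m and 13 in SD 12m. Col6a3, Thbs1, Fbn1, Tnc, Col1a2 and Lamb1 went from quiescent to Polycomb, and Thbs1 stayed quiescent in SD 12m. Dcn (97479500 to 97518163 on chromosome 10), which encodes the proteoglycan decorin, went from state 1 to state 6 with 16, 0 and 2 promoter-class bins, and Col5a1 made the same move. Plod2, which hardens collagen, and Slfn2 were the other genes that led this rare move from promoter to Polycomb, made by 26 genes in all. In the other direction Col4a1 and Col4a2, the basement membrane collagens that share 1 start region, went from state 5 to state 1. Mmp2 and Lox went from Polycomb to quiescent. Markers of stellate cells and fibroblasts changed at 4 of 8 in CR 12m and also at 4 of 8 in SD 12m. In CR 12m Col1a1, Col1a2 and Des went to Polycomb and Col3a1 from state 7 to quiescent, while Acta2 and Pdgfrb kept an enhancer state.

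The promoter of Col1a2, a chain of type I collagen, is shown as a start that gained Polycomb state with intermediate CG content. It lies at chr6:4505368-4505667 on the forward strand and holds 13 CG dinucleotides.
Col1a2: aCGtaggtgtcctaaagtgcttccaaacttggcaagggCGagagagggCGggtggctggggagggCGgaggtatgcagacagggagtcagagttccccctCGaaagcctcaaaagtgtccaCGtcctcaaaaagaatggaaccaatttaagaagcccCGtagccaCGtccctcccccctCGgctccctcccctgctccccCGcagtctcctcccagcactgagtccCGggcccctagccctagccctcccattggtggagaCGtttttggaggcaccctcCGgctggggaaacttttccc

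Of 100 developmental transcription factors, most of them known as Polycomb targets, 22 changed class (22%), against 26 in SD 12m. The share is near that of all genes, but 18 of the 22 moves were into the Polycomb class. Polycomb starts numbered 70 in SD 3m, 85 in CR 12m and 87 in SD 12m, with 9 genes from state 5 (Dlx1, Dlx2, Tbx1 and others) and 8 from quiescent (Tbx5, Sox10, Atoh1 and others). Hand2 was the other one, from state 7 to Polycomb over all 21 bins in CR 12m and still in state 7 in SD 12m, while Irx2 went from Polycomb to quiescent, Pax8 from quiescent to state 4, and Irx3 and Nkx2-5 went from Polycomb to state 5. Hox genes changed at 6 of 39 (15.4%, beside 25.0% of all genes), against 3 in SD 12m. Hoxa2 had 21 promoter-class bins in SD 3m, 0 in CR 12m and 12 in SD 12m, and Hoxb4 had 10, 0 and 1. Fetal liver and imprinted genes changed at 4 of 29 (13.8%, also below the 25.0% of all genes), against 7 in SD 12m. H19 went from Polycomb to quiescent and Cdkn1c from quiescent to state 4.

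By the number of bins that moved, Tenm2, Thsd7b and Ryr3 led the change from quiescent to Polycomb. Ties between windows went to the gene with more body bins of the move, so this ranking favours long genes. Tenm2, an adhesion protein of 4689 bins on chromosome 11, had 7.9% Polycomb bins in SD 3m, 47.8% in CR 12m and 64.8% in SD 12m. Thsd7b had 3.6%, 40.7% and 63.3%, and Ryr3, a calcium channel of muscle and brain, had 9.5%, 66.7% and 82.0%. In these 3 genes CR 12m lay between SD 3m and SD 12m. Cd177, a neutrophil receptor, had 0.0% Polycomb bins in SD 3m, 100.0% in CR 12m and 65.1% in SD 12m. Grap2, an adaptor of T cells, had 65.8% enhancer bins in SD 3m and 74.7% Polycomb bins in CR 12m. Runs of 3 or more neighbours that went from quiescent to Polycomb numbered 42 with 147 genes. They included 5 keratin genes from Krt32 to Krt15 on chromosome 11, the heart myosins Myh6 and Myh7 with the RNAs between them, and 6 olfactory receptor genes from Olfr393 to Olfr398.

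Loss of Polycomb state was led by Syt14, Nfia and Ankrd36. Syt14, which acts in vesicle traffic, had 59.2% Polycomb bins in its body in SD 3m, 2.6% in CR 12m and 35.8% in SD 12m, and Ankrd36 had 71.4%, 14.1% and 8.2%. Nfia, a transcription factor that liver expresses, lost 21 Polycomb bins around the start of its longest transcript while 68.6% of its body was enhancer in SD 3m and 70.7% in CR 12m, and its other curated start, 195683 bp away, was in state 1 in all 3 groups. Whole bodies left the Polycomb class at Adra1d, an adrenergic receptor gene, which had 100.0% Polycomb bins in SD 3m, 0.0% in CR 12m (where 87.4% were enhancer) and 25.3% in SD 12m. Ccdc110 and Cibar2 also passed from 100.0% to 0.0% in CR 12m, while in SD 12m they had 0.0% and 100.0%. Runs of neighbours that went from Polycomb to quiescent included the α-globin genes Hba-a1, Hbq1b, Hba-a2 and Hbq1a on chromosome 11 and Trim15, Trim10, Trim40 and Trim31 on chromosome 17. The α-globin genes are a pair of near-identical copies. Over bodies of 10 kb or more (14323 genes), the percent of Polycomb bins rose in 1828 genes and fell in 1845 in CR 12m, with changes of 50 points or more in 287 up and 283 down, against 441 up and 246 down in SD 12m.

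State 7 arose at silent receptor genes, with lower counts after caloric restriction. Of 1104 olfactory receptor genes 221 changed class (20%, beside 25.0% of all genes). Quiescent became Polycomb at 82, quiescent became state 7 at 81 and Polycomb became quiescent at 40. SD 12m had 433 changed genes and 144, 260 and 14 of these moves. Of 349 vomeronasal receptor genes 49 changed (14%, also below the 25.0% of all genes), with 28 from quiescent to state 7, against 85 and 58 in SD 12m. Vmn2r108, a receptor for pheromones, had 0.0% state 7 bins in SD 3m and 100.0% in both groups at 12 months, and Vmn2r105 and Vmn2r112 rose by 96.3 and 93.4 points in CR 12m. These receptors belong to families of similar copies, where reads that fit several places are lost.

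The promoter of Vmn2r108 is shown because it has no CG dinucleotide, unlike the other promoters printed here. It lies at chr17:20481187-20481486 on the reverse strand, and its 300 bases are therefore all in lower case.
Vmn2r108: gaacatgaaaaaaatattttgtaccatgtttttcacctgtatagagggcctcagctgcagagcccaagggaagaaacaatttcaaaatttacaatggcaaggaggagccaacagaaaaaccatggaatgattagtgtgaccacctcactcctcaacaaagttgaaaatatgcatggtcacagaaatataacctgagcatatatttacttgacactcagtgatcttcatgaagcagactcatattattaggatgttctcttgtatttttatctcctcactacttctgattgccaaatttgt

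CG content was counted for the 18236 autosomal genes whose RefSeq promoter matched the TSS used. The median was 13 CG dinucleotides in 300 bases over all of them, 23 where the promoter class was kept, 19 where promoter became enhancer and 1 where quiescent became state 7. Promoters were split after the data were seen into high (observed to expected CG of 0.6 or more and GC of 55% or more), low (under 0.4) and intermediate. Of promoter-class starts, 19.8% left the class in CR 12m in the high band, 28.9% in the intermediate and 53.3% in the low band, and SD 12m gave 11.5%, 16.7% and 41.2%. Of quiescent starts, 32.0% became Polycomb in the high band and 10.6% in the low band, and of Polycomb starts, 19.2% became quiescent in the high band and 34.3% in the low band. The motif TATAAA, searched on the strand of the gene in the 50 bases before the TSS, was present in 3.41% of all matched promoters, in 1.06% of those that kept the promoter class and in 1.94% of those that became enhancer.

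Among the moves, those from state 7 to an active class had the highest median CG content. The median was 33 CG dinucleotides at 23 matched genes that became promoter and 34 at 47 that became enhancer, beside 5 at 66 that stayed in state 7. Hnrnpa0, an RNA-binding protein expressed in all tissues, had 9, 15 and 17 promoter-class bins in its window and passed from state 7 to state 1 at the TSS bin in both groups at 12 months. Erbb4 and Cadps2 made the same move in CR 12m, and Erbb4 was in state 7 in SD 12m. Clustered protocadherin genes, cell-adhesion proteins that neurons choose singly, led the change from quiescent to state 7 by the number of bins that moved, which favours long genes. Pcdha3 had 9.0% state 7 bins in its body in SD 3m, 43.9% in CR 12m and 48.9% in SD 12m. Its neighbours Pcdha5 and Pcdha6 share the last exons with it, so their bodies overlap and are not separate evidence. State 7 was left for quiescent at 111 starts, led by Nlrp9c, Zfp595 and Olfr18. The body of Chil4, a chitinase-like gene with close copies, had 98.9% state 7 bins in SD 3m, 0.0% in CR 12m, where 96.7% were Polycomb, and 95.6% in SD 12m. Zfp984, a zinc finger gene, took the opposite course at its start and went from state 1 to state 7, with 18 promoter-class bins in SD 3m and 0 in both groups at 12 months.

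By gene type, the TSS bin changed at 25.9% of 20021 protein-coding genes, 22.5% of 3220 long non-coding RNA genes, 20.7% of 1136 microRNA genes and 21.3% of 122 snoRNA genes. By chromosome the share ran from 20.7% on chromosome 12 to 28.8% on chromosome 11, but single moves were less even. Of quiescent starts, 1.13% became Polycomb on chromosome 19 (2 of 177) and 27.2% on chromosome 11 (85 of 313), and of Polycomb starts, 17.8% became quiescent on chromosome 15 (18 of 101) and 49.5% on chromosome 17 (46 of 93). Body class changed at 11.9% of 2317 genes over 100 kb and at 24.0% of 7116 genes up to 5 kb. In genes over 100 kb the Polycomb class covered 5.6% of body bins in SD 3m, 8.96% in CR 12m and 12.4% in SD 12m, and state 7 covered 1.44%, 2.81% and 7.7%. In bodies of 10 kb or more the percent of enhancer bins rose in 7904 genes and fell in 3172 in CR 12m, with a mean change of 4.88 points, against 3.28 in SD 12m. Members are not independent of each other, since 1170 genes share their TSS bin with another gene and 852 of the genes that went from promoter to enhancer lie within 100 kb of the previous one. Of 329 changed genes among those listed or named, 46 have curated starts in more than 1 bin, and 25 of these 46 made the same move at another start.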

How the data were processed

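The authors aligned reads of 50 bp to mm10 with bwa aln (0.6.2-r126), removed reads with a mapping quality under 1, duplicates, and reads outside chromosomes 1 to 19 and X with SAMtools (0.1.18), merged the libraries of each group, and ran ChromHMM with 8 states. The deposited values are state labels from 1 to 8 for every bin of 200 bp, not counts or signal, so the depth per bin is unknown. Columns that were left out numbered 0.

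Here each gene was given the curated RefSeq transcript of GRCm38.p6 with the longest span, its TSS bin, the 10 bins on each side, and the bins of its body. States were merged into 5 classes, and the class of a window or body is the most frequent one, a tie going to the class of the TSS bin. Counting was done with pandas 2.3.3 and numpy 2.4.6 under Python 3.11.15, and plots were drawn with matplotlib 3.10.9. The functions were tested on simulated segmentations. Named genes were, for each move made by 20 or more genes, the 3 protein-coding genes with most window bins of that move (ties by body bins), the 3 largest rises and falls in body percent per class (genes of 10 kb or more), the 3 largest losses and gains of promoter-class bins, and members of the gene lists. The genes, lists and markers were chosen with earlier results of these data known; the adipocyte, leukocyte and histone lists and the CG bands were added after the values were seen. No test was run, as each group has 1 segmentation. SD 6m was not analysed here. Promoter sequences come from RefSeq (GRCm38.p6) and matched 18236 genes. A few genes that the rule or the lists name are not reported here.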

Additional observations from a re-analysis of the deposited data

Results flagged for a closer look

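State 7 at the TSS bin went in opposite directions in the groups at 12 months. It was held by 374 genes in SD 3m, 349 in CR 12m and 898 in SD 12m, a change of -25 genes with caloric restriction and of 524 with standard diet. The difference between the 2 changes was not tested, because each group has 1 segmentation, and both changes share SD 3m. The opposite directions hold for the TSS bin only. Windows dominated by state 7 numbered 290 in SD 3m, 317 in CR 12m and 797 in SD 12m, and bodies 319, 379 and 864. Over all autosomal bins state 7 covered 1.92%, 4.35% and 11.9%.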

How the results depend on the processing

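The 13 counts of genes were recomputed under 10 alternatives, which gave 91 values, and 86 of them stayed within 1.5 times the reported count. With only genes whose TSS bin lay inside a stretch of its class, 109 genes entered the promoter class. With state 5 as a class of its own, 140 genes moved from enhancer to quiescent. Bodies that changed class numbered 7485 with the 8 states unmerged and 3148 without the first 2 kb (genes over 4 kb only), where 713 genes changed alike in all 3 measures. By construction, 7485 and 140 rest on more classes and 109, 3148 and 713 on fewer genes. Which of CR 12m and SD 12m had the larger count held in all 91 values.

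No paired analysis was possible because each group has 1 segmentation of merged libraries. For the same reason leaving out a library was not run, no interval over mice is given, and age and diet cannot be told apart in CR 12m against SD 3m alone. The depth of the merged reads is unknown, so a mark that was not detected is not shown to be absent.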
